A study of Bos taurus with 48 samples.

Results

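SLC24A1, SLC24A5 and RYR3 are genes of calcium transport and release, and they were followed in the leukocytes of calves during weaning and housing. They were picked by identifier, as 3 of the 25669 Ensembl genes in the count table (SLC24A1 is ENSBTAG00000025826, SLC24A5 is ENSBTAG00000004854 and RYR3 is ENSBTAG00000025642), and the study had already placed them in gene lists drawn from these same counts. In weaned calves against d 0 it listed SLC24A1 and SLC24A5 as raised on d 1, and SLC24A1 and RYR3 on d 2. SLC24A5 was also listed as raised in weaned against control calves on d 2. The study's threshold was an adjusted p under 0.05 and at least 2-fold, which no member reached in the main tests below. Those comparisons are fitted again here and give no independent evidence. Leukocyte mRNA of 12 calves was sequenced on d 0, 1, 2 and 7, which gave 48 libraries in 8 groups of 6. Control calves (labelled as housed with their dam) and weaned calves (taken from their dam on the day of housing and penned with other weaned calves) were all spring-born, intact male Simmental beef animals that had been vaccinated against respiratory viruses and grazed with their dams until then. The d 0 samples were drawn before housing, so that on d 0 both treatments were still suckled calves at grass, and the control calves of the later days were housed animals and not undisturbed ones.

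SLC24A1 and SLC24A5 belong to the potassium-dependent sodium/calcium exchangers, membrane proteins that move calcium and potassium against the flow of sodium. SLC24A1 is best known from the outer segment of rod photoreceptors, where it removes calcium from the cell. SLC24A5 sits in intracellular membranes and is best known from pigment cells, where it is needed for melanin formation. RYR3 is a ryanodine receptor, a channel that lets calcium out of the endoplasmic or sarcoplasmic reticulum and that was described first in brain and muscle. Leukocytes raise their cytosolic calcium mainly by release through inositol trisphosphate receptors followed by store-operated entry through STIM and ORAI proteins, so none of these 3 genes is a standard leukocyte marker.

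Total counts per library were 1662995 to 4256011, with a median of 3600161. Levels are given in CPM, counts scaled to a common library size by TMM over the 48 libraries. A floor of 3 counts in a library corresponded to 0.705 to 1.80 CPM before this scaling, which covers counting error only. SLC24A1 had 404 counts in all, SLC24A5 853 and RYR3 1437. A count of at least 3 was reached by SLC24A1 in 41 of 48 libraries, by SLC24A5 in 46 and by RYR3 in 41, and no library was at 0. Levels of different genes are not compared, since gene lengths were not used. RefSeq's annotation of ARS-UCD2.0, which is not the build of the counts, places DENND4A over part of SLC24A1, MYEF2 over part of SLC24A5 and the microRNA gene MIR2285AS-1 within RYR3. The study describes no step of library preparation that marks the strand, so reads of overlapping genes could not be told apart by strand. Whether counting used the strand is not given in the sources used here. Of the markers listed for leukocytes in general, neutrophils, T cells, B cells and monocytes none could be identified by symbol, and the labelled cell type was therefore not checked.

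Libraries of the same calf were compared over the 200 genes that differed most between calves, members left out. In 43 libraries the most similar library came from the same calf. In 5 it came from another calf: calf 1755 on d 2 (r = 0.55 with calf 1758 on d 0, against at most -0.17 with its own libraries), calf 1758 on d 0 (r = 0.55 with calf 1755 on d 2, against at most 0.15), calf 1758 on d 7 (r = 0.69 with calf 1770 on d 1, against 0.54), calf 1770 on d 7 (r = 0.61 with calf 1758 on d 2, against 0.25) and calf 1763 on d 0 (r = 0.56 with calf 1789 on d 0, against 0.51). The labels were kept as deposited. Results are given with and without these 5 libraries, and also without calves 1755 and 1758, which gave 873 of the RYR3 counts (60.8%).

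**Figure D1:**
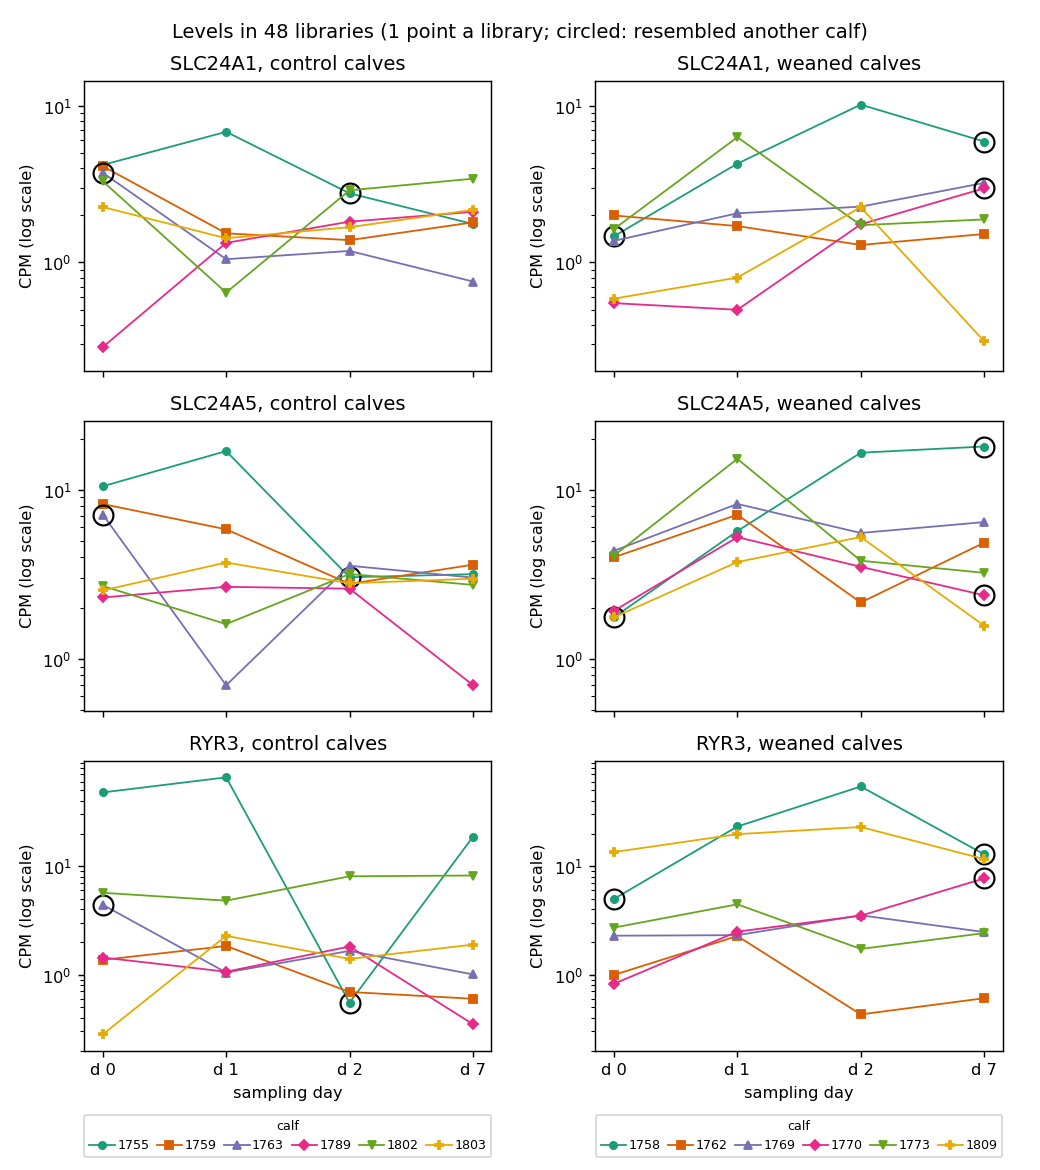
Level of SLC24A1, SLC24A5 and RYR3 in each of 48 libraries, in CPM on a log axis, against the sampling day, with 1 line a calf, control calves on the left and weaned calves on the right. Circles mark the 5 libraries most similar to a library of another calf. RYR3 in calf 1755 lies at 0.552 CPM on d 2 and between 18.6 and 65.9 CPM on its other days.

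SLC24A5 was the member with the most regular pattern. In weaned calves its level ran from 1.76 to 4.35 CPM on d 0, with a median of 2.95 and a mean of 2.97 ± 1.28 (SD, n = 6). On d 1 it ran from 3.73 to 15.2 CPM, with a median of 6.39 and a mean of 7.53 ± 4.06. Each of the 6 weaned calves had more SLC24A5 on d 1 than on d 0, by 0.70 to 1.67 on the log2(CPM + 1) scale, although the ranges of the groups overlapped slightly. On d 2 the weaned calves lay between 2.15 and 16.5 CPM (median 4.52) and on d 7 between 1.57 and 18.0 CPM (median 4.04), and calf 1758 was the highest on both days. In control calves the highest median was that of d 0. Their SLC24A5 ran from 2.30 to 10.5 CPM on d 0 (median 4.91), from 0.698 to 16.9 CPM on d 1 (median 3.18), from 2.60 to 3.55 CPM on d 2 (median 2.91) and from 0.70 to 3.60 CPM on d 7 (median 3.0). The 3 highest controls of d 0, calves 1755, 1759 and 1763, had 7.12 to 10.5 CPM then and 3.02 to 3.60 CPM on d 7.

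Over all genes, edgeR's quasi-likelihood F-test with Benjamini-Hochberg adjustment did not call SLC24A5 in any comparison. For weaned calves on d 1 against d 0 the fitted log2 difference was 1.30 (SE 0.36, adjusted p = 0.423). It was 1.19 (SE 0.38) without the doubted libraries, 1.26 (SE 0.40) without calves 1755 and 1758 and 1.28 (SE 0.25, adjusted p = 0.15) with calf as a block, and under each of these its unadjusted p stayed below 0.05. For weaned against control calves the difference was -0.87 (SE 0.42) on d 0, 0.49 (SE 0.57) on d 1, 1.04 (SE 0.42) on d 2 and 1.18 (SE 0.53) on d 7, with adjusted p of 0.624, 0.959, 0.950 and 0.182. The d 7 value was 0.58 (SE 0.44) without the doubted libraries and 0.51 (SE 0.44) without the calf pair, and the d 2 value was 0.47 (SE 0.31) without the calf pair. The SLC24A5 difference on d 1 was 1.41 (SE 0.48, adjusted p = 0.387) without the calf pair, of which calf 1755 was the highest control on that day.

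SLC24A1 separated the treatments best on d 0, before any calf had been housed or weaned. Control calves then lay between 0.288 and 4.18 CPM, with a median of 3.51 and a mean of 2.98 ± 1.49 (SD, n = 6), and weaned calves between 0.549 and 1.99 CPM, with a median of 1.42 and a mean of 1.27 ± 0.58. The 5 highest controls were above every weaned calf, and calf 1789, at 1 count, was the lowest of all. The fitted log2 difference of weaned against control calves was -1.20 (SE 0.47, edgeR adjusted p = 0.624), and -1.20 (SE 0.56, adjusted p = 0.982) without the doubted libraries. On later days the treatments overlapped widely. Control calves had medians of 1.38 CPM on d 1 (0.641 to 6.81), 1.75 CPM on d 2 (1.18 to 2.88) and 1.95 CPM on d 7 (0.755 to 3.42). Weaned calves had medians of 1.88 CPM on d 1 (0.498 to 6.29), 2.00 CPM on d 2 (1.29 to 10.1) and 2.42 CPM on d 7 (0.314 to 5.90). The high values belonged to calf 1755 on d 1, calf 1773 on d 1 and calf 1758 on d 2 and d 7.

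Within the weaned calves the SLC24A1 difference from d 0 was 1.00 (SE 0.55) on d 1, 1.37 (SE 0.54) on d 2 and 1.05 (SE 0.51) on d 7, with adjusted p of 0.423, 0.944 and 0.920. Of the 6 weaned calves 4 were higher on d 1, 5 on d 2 and 4 on d 7 than on d 0. The d 1 value was 0.63 (SE 0.56) without calf 1773, the d 2 value was 0.62 (SE 0.42) without calf 1758, and the d 7 value was 0.52 (SE 0.57) without the doubted libraries. In control calves the SLC24A1 differences from d 0 were -0.45 (SE 0.58), -0.56 (SE 0.44) and -0.55 (SE 0.46) on d 1, 2 and 7, none of them with an unadjusted p below 0.05, and 4, 5 and 4 of 6 calves were lower. Without calf 1755 the d 1 value was -1.15 (SE 0.52, adjusted p = 0.922), with an unadjusted p below 0.05, and it was -0.24 (SE 0.63) without calf 1802. The d 2 and d 7 values were -0.37 (SE 0.49) and -0.33 (SE 0.50) without calf 1763.

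RYR3 levels lay far apart between calves. Calf 1809, weaned, had 13.5, 19.7, 23.0 and 11.6 CPM on d 0, 1, 2 and 7. Calf 1802, a control, had 5.69, 4.81, 8.07 and 8.20 CPM, with the highest value only 1.71 times the lowest. At the other end the weaned calf 1762 had 0.995, 2.27, 0.430 and 0.607 CPM and the control calf 1759 had 1.37, 1.84, 0.693 and 0.60 CPM. Calf 1755, a control, had 47.8, 65.9, 0.552 and 18.6 CPM, which are 183, 242, 2 and 53 counts. Calf 1758, weaned, had 4.99, 23.2, 54.3 and 12.9 CPM, or 17, 98, 230 and 48 counts. The drop of calf 1755 on d 2 and the low d 0 value of calf 1758 fall in libraries that resembled another calf's. Calf 1770, weaned, had 0.824, 2.49 and 3.50 CPM and then 7.72 CPM in its d 7 library, which resembled calf 1758.

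The group values of RYR3 followed these calves. In control calves the median was 2.92 CPM on d 0 (0.282 to 47.8), 2.06 CPM on d 1 (1.05 to 65.9), 1.53 CPM on d 2 (0.552 to 8.07) and 1.45 CPM on d 7 (0.350 to 18.6). In weaned calves it was 2.50 CPM on d 0 (0.824 to 13.5), 3.47 CPM on d 1 (2.27 to 23.2), 3.51 CPM on d 2 (0.430 to 54.3) and 5.09 CPM on d 7 (0.607 to 12.9). The ranges of the treatments overlapped on every day, and the means had an SD as large as themselves or larger in 7 of the 8 groups, for example 12.8 ± 26.0 CPM in the controls on d 1. The largest fitted difference was that of weaned against control calves on d 2, a log2 difference of 2.54 (SE 0.91, edgeR adjusted p = 0.950). It was 2.35 (SE 0.97) without the doubted library and 1.23 (SE 0.81) without calves 1755 and 1758. For control calves on d 2 against d 0 the RYR3 difference of -2.01 (SE 0.91, adjusted p = 0.6248) became 0.15 (SE 0.67, adjusted p = 0.977) without calf 1755. On d 0 and d 1 the RYR3 difference between treatments was -1.25 (SE 0.90) and -0.51 (SE 0.99), and 0.63 (SE 0.76) and 1.5 (SE 0.68) without the calf pair, so that 1 control calf set its direction. All 6 weaned calves had a higher RYR3 CPM on d 1 than on d 0, by 0.01 to 2.02 on the log2(CPM + 1) scale. The smallest rise, in calf 1769, was from 2.29 to 2.31 CPM, with 10 counts on d 0 and 9 on d 1. Its direction is therefore not settled. The largest rise, in calf 1758, started from a d 0 library that resembled another calf's. For weaned calves on d 1 against d 0 the fitted log2 difference of RYR3 was 1.09 (SE 0.72, adjusted p = 0.447). With calf as a block it was 1.02 (SE 0.30, adjusted p = 0.15). Without the block this RYR3 difference was 0.61 (SE 0.80) when calf 1758 was left out and 1.54 (SE 0.71, adjusted p = 0.463) when calf 1809 was left out.

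Each calf's change from d 0, averaged over d 1, 2 and 7 on the log2(CPM + 1) scale, was then compared between treatments by an exact two-sided permutation test of the calf labels, in which 924 arrangements allow no p below 0.00216. For SLC24A5 the 6 weaned calves changed by 0.09 to 2.24, with a mean of 0.76 ± 0.75 (SD), and the 6 control calves by -1.37 to 0.23, with a mean of -0.53 ± 0.59. All 6 weaned calves and 1 of 6 control calves were higher than on d 0. The difference of 1.28 gave p = 0.00433 in the exact test. The same test gave p under 0.05 for 39.7% of the 12301 genes with a mean of at least 1 CPM, the members included. Without the doubted libraries, which left 5 calves a treatment with a d 0 and a later library, the SLC24A5 difference was 0.79 (exact p = 0.0159, 252 arrangements), and without calves 1755 and 1758 it was 0.94 (exact p = 0.0159).

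For SLC24A1 the same change was -0.26 to 1.58 in weaned calves (mean 0.58 ± 0.60) and -1.25 to 1.08 in control calves (mean -0.36 ± 0.81), with 5 of 6 and 1 of 6 calves higher than on d 0. Its difference of 0.94 (exact p = 0.0433) became 0.47 (exact p = 0.222) without the doubted libraries and 0.75 (exact p = 0.127) without the calf pair. For RYR3 the weaned calves changed by -0.03 to 2.14 (mean 0.69 ± 0.91) and the control calves by -1.95 to 1.14 (mean -0.40 ± 1.09), a difference of 1.09 (exact p = 0.0866) that was 0.25 (exact p = 0.484) without the doubted libraries. Of the 12301 genes, 15% had p under 0.05 without the doubted libraries and 15.2% without the calf pair. After Benjamini-Hochberg adjustment over these genes with all libraries no gene passed (4883 had p under 0.05 before it), and the exact permutation p was 0.0955 for SLC24A5, 0.118 for SLC24A1 and 0.166 for RYR3. A difference at this level was shared by a large part of all genes and is not particular to the members. Since the d 0 level enters every one of these changes, the lower d 0 levels of SLC24A1 and SLC24A5 in the weaned calves and their later levels both contribute.

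**Figure D2:**
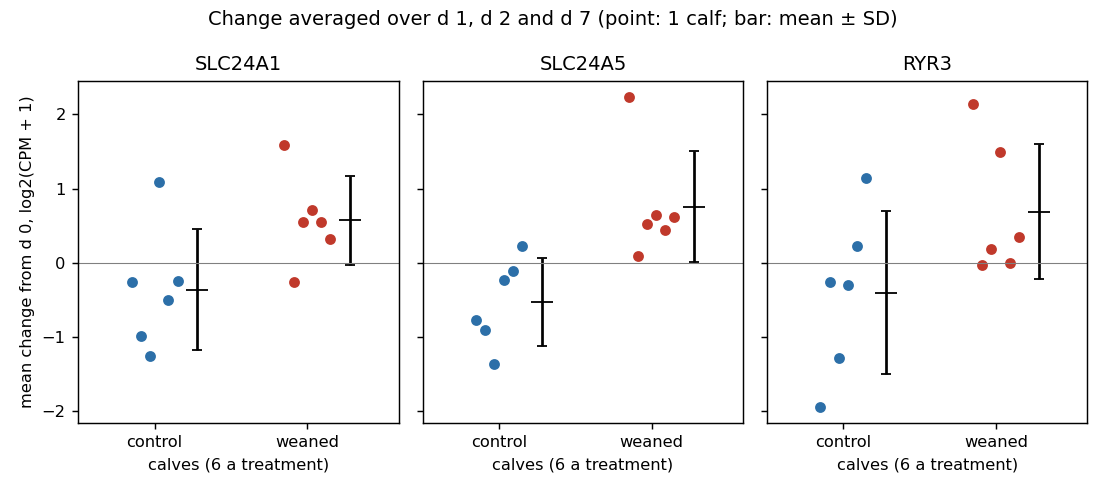
Change from d 0 averaged over d 1, d 2 and d 7 for each calf, on the log2(CPM + 1) scale, for SLC24A1, SLC24A5 and RYR3 in 6 control and 6 weaned calves. Points are calves and bars give the mean ± SD. For SLC24A5 all weaned calves lie above 0 and 5 of 6 control calves below it, while SLC24A1 and RYR3 overlap more.

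The treatment by day interaction, fitted to 24 libraries with a calf block, asks on each day whether the change from d 0 differed between treatments. For SLC24A5 it was 1.53 (SE 0.47, adjusted p = 0.20) on d 1, 1.57 (SE 0.60, adjusted p = 0.505) on d 2 and 1.62 (SE 0.58, adjusted p = 0.0849) on d 7, in log2 units. For SLC24A1 it was 1.46 (SE 0.63), 1.65 (SE 0.65) and 1.43 (SE 0.68), with adjusted p of 0.206, 0.505 and 0.137. For RYR3 it was 0.95 (SE 0.50), 2.40 (SE 1.07) and 1.24 (SE 0.67), with adjusted p of 0.254, 0.505 and 0.182. None of the 9 values was called. Leaving out 1 calf moved the RYR3 values to 0.57 (SE 0.49) on d 1 without calf 1758, 1.22 (SE 0.76) on d 2 without calf 1755 and 0.82 (SE 0.62) on d 7 without calf 1770. After the calves with a doubted library were left out, SLC24A5 on d 1 had 1.08 (SE 0.37, adjusted p = 0.483), while on d 2 SLC24A1, SLC24A5 and RYR3 had 0.82 (SE 0.70), 0.63 (SE 0.53) and 0.12 (SE 0.59), and on d 7 they had 0.50 (SE 0.71), 0.98 (SE 0.51) and 0.21 (SE 0.59).

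The members have to be read against all genes tested. At an adjusted p under 0.05 and at least 2-fold, 0% of genes were called in 12 of the 13 comparisons and 3.73% in control calves on d 7 against d 0, and none of the 3 members was called in any of the 13. Without adjustment, 17 of the 39 member tests had p under 0.05, 13 of them with a higher and 4 with a lower level. With flowcell as covariate, for which each library's day was assumed from the order of sampling, 8 of 39 had it, 7 higher and 1 lower. In those fits 1.36% (d 2 interaction) to 26.4% (weaned against control calves on d 7) of all genes had it. Of the 17 tests 4 stayed below 0.05 whichever calf was left out, namely SLC24A1 between treatments on d 0 and SLC24A5 in weaned calves on d 1 against d 0 and in the d 1 and d 7 interactions. How many of all genes stayed below it in the same way was not computed. On d 0, 1, 2 and 7, weaned against control calves gave 1, 0, 2 and 1 members at this level, where 6.23%, 3.01%, 3.37% and 25.5% of all genes had it. Within weaned calves 1, 2 and 0 members had it on d 1, 2 and 7 against d 0, beside 10.4%, 2.11% and 2.65% of all genes. Within control calves 0, 2 and 1 members had it, beside 0.768%, 5.09% and 40.1%. The same calves were sampled on each day, and with calf as a block the weaned calves gave 3, 2 and 0 members beside 25.1%, 2.4% and 2.72% of all genes, and the control calves 0, 0 and 1 beside 3.01%, 9.26% and 42%. On d 1 in weaned calves the blocked SLC24A1 difference was 0.89 (SE 0.39, adjusted p = 0.182). In the interactions 2, 3 and 2 members had it, beside 22.3%, 7.2% and 35.8% of all genes, and with flowcell as covariate 1, 0 and 0 beside 12.6%, 1.36% and 1.6%. Without the calf block the d 1 interaction gave 0 members beside 4.61%. These comparisons share libraries, and the members were chosen with earlier results of these data known. Without the doubted libraries 6 of 36 member tests had p under 0.05, and without calves 1755 and 1758 it was 6 of 39. In the first setting the share of all genes was smallest in control calves on d 1 against d 0 (51 higher, 24 lower of 13850). It was largest in control calves on d 7 (1633 and 2506 of 13711). Without the calf pair it was smallest in weaned calves on d 2 against d 0 (97 and 84 of 13695). There too it was largest in control calves on d 7 (930 and 2080 of 13538).

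**Figure D3:**
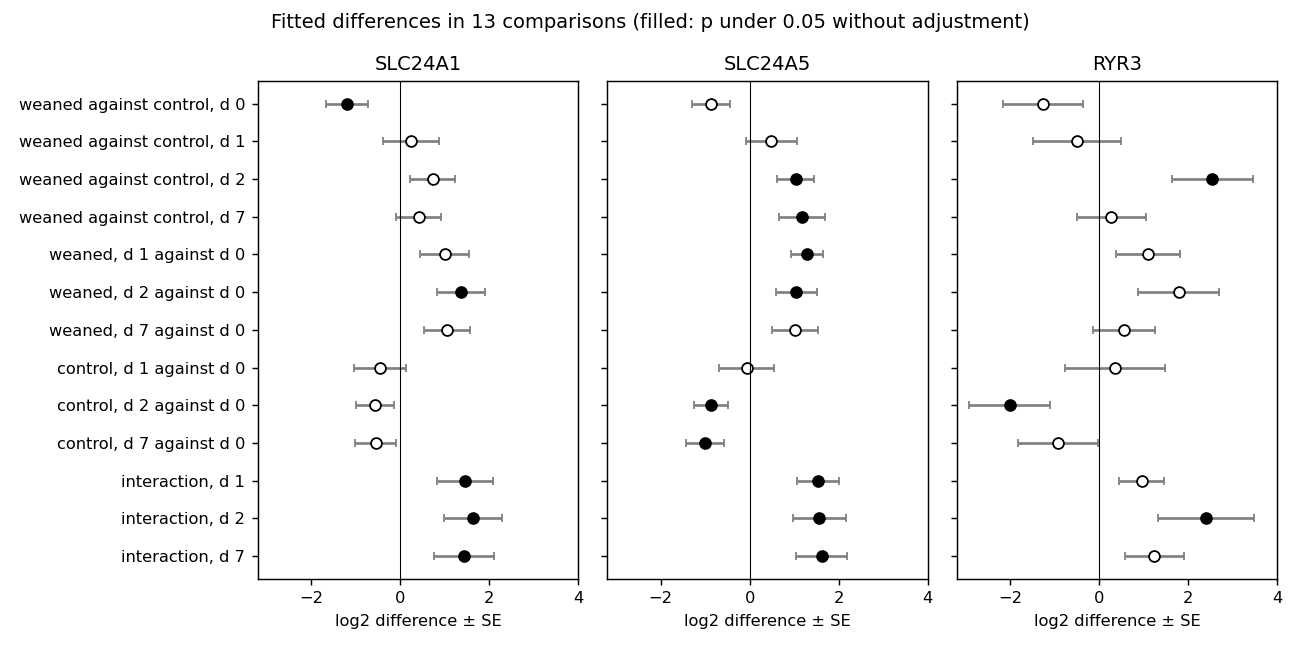
Fitted log2 differences of SLC24A1, SLC24A5 and RYR3 in the 13 comparisons, with bars of 1 SE from edgeR's quasi-likelihood fit, filled where p was under 0.05 without adjustment. Values lie below 0 on d 0 between treatments and above 0 in all 9 interactions, and no value was called after adjustment.

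**Figure D4:**
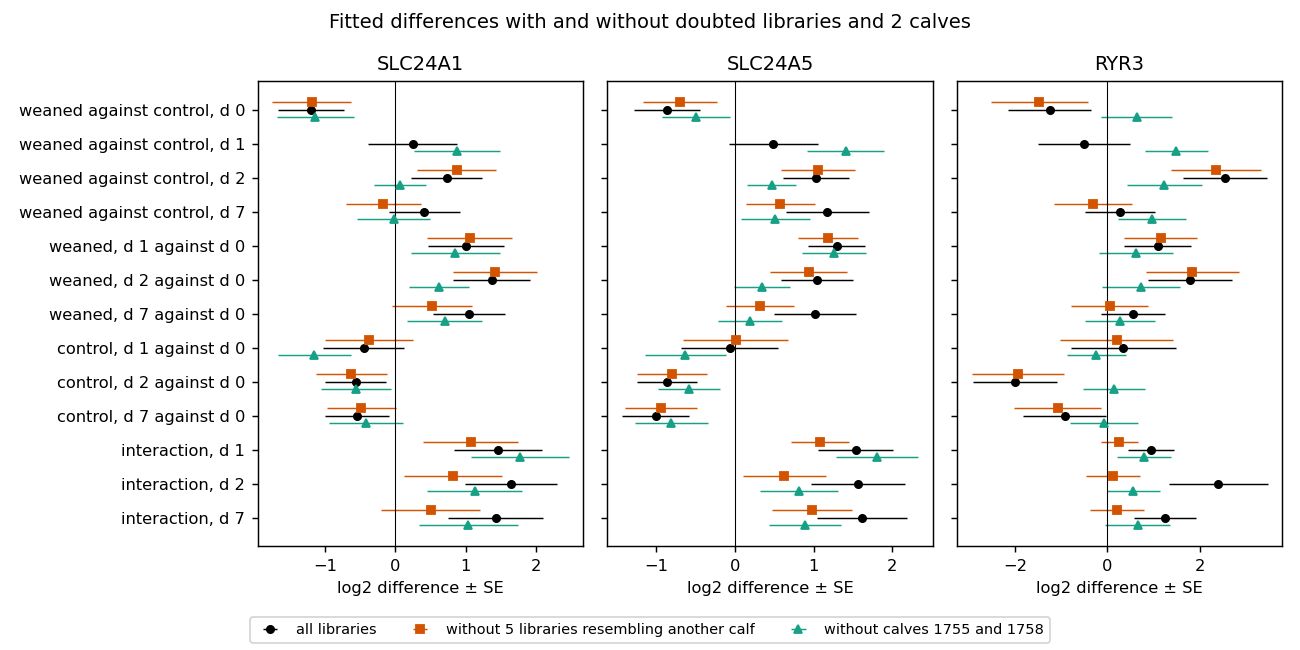
The same fitted log2 differences ± SE with all libraries (circles), without the 5 libraries that resembled another calf (squares) and without calves 1755 and 1758 (triangles). In the interactions the squares leave out every library of a calf with a doubted library in that fit. For RYR3 the differences between treatments on d 0 and d 1 change sign when the calf pair is left out. Its d 2 interaction goes from 2.40 to 0.12 without calves 1755, 1758 and 1763 (18 libraries left).

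The counts of each member varied between libraries by more than counting error alone. The chi-square of the counts over 48 libraries per degree of freedom, which is 1 on average for counting error alone, was 5.57 for SLC24A1, 12.5 for SLC24A5 and 86.2 for RYR3. The libraries differ in calf, day and treatment, so that this says nothing of which of them the spread comes from. The intraclass correlation of log2(CPM + 1), the estimated share of the variance that lay between calves, was 0.24 for SLC24A1, 0.19 for SLC24A5 and 0.61 for RYR3. Without the 5 doubted libraries it was 0.41, 0.35 and 0.90. Those libraries were picked for being more like another calf than their own. Leaving them out therefore favours a larger share between calves, and the rise is no evidence of a stable level per calf. Ordered by mean level, the groups ran from 14.4 ± 21.2 CPM (weaned calves, d 2) to 2.36 ± 2.84 CPM (control calves, d 2) for RYR3, from 7.53 ± 4.06 CPM (weaned calves, d 1) to 2.70 ± 1.02 CPM (control calves, d 7) for SLC24A5 and from 3.24 ± 3.40 CPM (weaned calves, d 2) to 1.27 ± 0.58 CPM (weaned calves, d 0) for SLC24A1. For each member, none of the 7 pairs of neighbours in this order differed by more than the larger of their SDs.

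The members differed in how they moved with the rest of the transcriptome. Over 48 libraries, which share calves and depth, Pearson's r of log2(CPM + 1) was 0.71 between SLC24A1 and SLC24A5, 0.46 between SLC24A1 and RYR3 and 0.47 between SLC24A5 and RYR3. Without calves 1755 and 1758 these became 0.53, 0.06 and 0.11. Of 12300 other genes with a mean of at least 1 CPM, 21.0% had r above 0.7 with SLC24A5, 6.72% (826 genes) with SLC24A1 and 0.0569% (7 genes) with RYR3. Without calves 1755 and 1758 it was 1601 genes in place of 2577 with SLC24A5, 2 genes with SLC24A1 and 1 gene with RYR3, so that the correlations of SLC24A1 above 0.7 rested on these calves. The first principal component of these genes and the members, its sign set to rise with SLC24A5, held 44.2% of their variance. Its r was 0.90 with SLC24A5, 0.74 with SLC24A1 and 0.41 with RYR3. Among the 446 of these genes that could be named, those most like SLC24A5 were HBS1L (0.92), the DNA repair gene BRCA2 (0.91), the cohesin gene SMC3 (0.90), PIK3C2A (0.90) and the histamine methyltransferase HNMT (0.90), with r between 0.85 and 0.86 without the calf pair. Those most like SLC24A1 were the transcription factor subunit GTF2A1 (0.80), the co-stimulatory ligand CD80 (0.79), SUZ12 (0.78), the cytokine receptor kinase JAK2 (0.77) and the kinase TAOK1 (0.77), with r of 0.66, 0.61, 0.62, 0.61 and 0.60 without the calf pair. Those most like RYR3 were the adhesion gene NRCAM (0.74), the ghrelin receptor GHSR (0.66), ENAH (0.63), the non-muscle myosin MYH10 (0.61) and the cation channel TRPC1 (0.61), and for these the r without the calf pair was 0.57, 0.45, 0.36, 0.43 and 0.32.

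**Figure D5:**
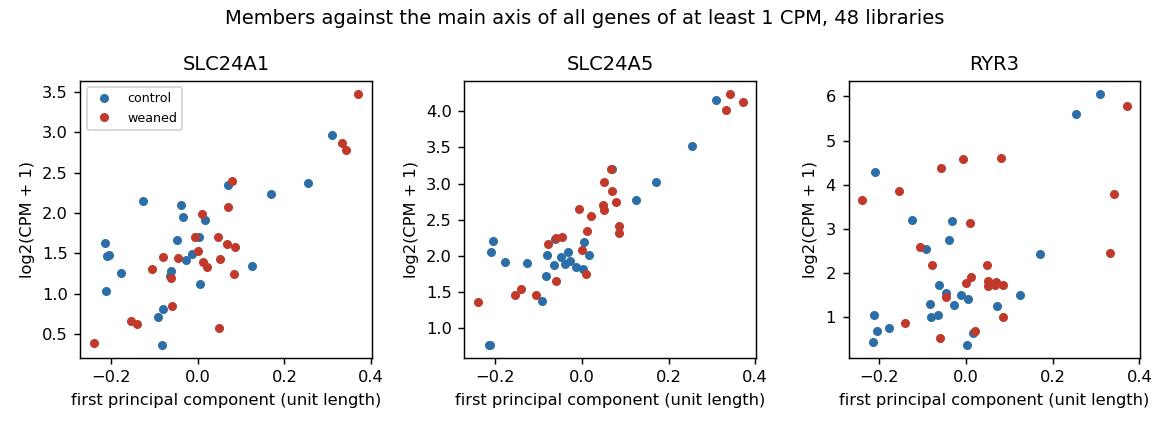
Level of SLC24A1, SLC24A5 and RYR3 as log2(CPM + 1) against the first principal component of all genes with a mean of at least 1 CPM, 1 point a library, control calves in blue and weaned calves in red. SLC24A5 follows the component closely (r = 0.90), SLC24A1 less so (0.74) and RYR3 least (0.41).

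In the group means the shared axis changed in the same direction as SLC24A5, but not in every calf. SLC24A5 is among the genes of this axis and set its sign, and the calves' changes in both were not correlated. From d 0 to the mean of the later days the score on the first principal component, whose values over the 48 libraries have unit length, changed by 0.09 ± 0.16 (SD, n = 6) in weaned calves, with 4 of 6 higher, and by -0.12 ± 0.10 in control calves, with 0 of 6 higher. The fibroblast list had a lower median on later days in weaned calves and a higher one in control calves. Of the 58 markers of all lists 11 could be identified, each of them because the study had selected it from these counts. The 5 fibroblast markers (COL1A1, COL1A2, COL3A1, DCN and LUM) were among them. Their summed level in weaned calves ran from 2.65 to 330.3 CPM on d 0, with a median of 146.5, and from 0 to 235.7 CPM on later days, with a median of 11.3. In control calves it ran from 4.65 to 134.2 CPM on d 0 (median 28.5) and from 0 to 240.7 CPM later (median 38.4). Its r over 48 libraries was -0.43 with SLC24A1, -0.34 with SLC24A5 and -0.29 with RYR3. The 3 of 6 red cell markers identified (HBB, ALAS2 and SLC4A1) summed to a median of 13.6 CPM in weaned calves on d 0 (8.96 to 20.1) and 9.33 CPM later (4.56 to 65.3), and to 8.38 CPM in control calves on d 0 (4.71 to 12.96) and 11.9 CPM later (2.18 to 48.6). Their r was -0.41 with SLC24A1, -0.40 with SLC24A5 and -0.51 with RYR3. The single identified markers of eosinophils (IL5RA), platelets (PPBP) and cycling cells (CDK1) had r with SLC24A5 of 0.40, 0.12 and 0.63. The study's blood counts, which covered more calves than were sequenced, also shifted on d 1. In weaned calves the neutrophil percentage was then higher, and the lymphocyte percentage lower, than before weaning and than in control calves. The part of these axes and cells in the members' values was not tested, and in bulk leukocytes fewer cells of a type and less RNA per cell cannot be told apart. None of the 5 melanocyte markers could be identified.

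The other genes of calcium transport were held against the same tests. A list of 60 genes of exchangers, release channels, pumps, entry channels, mitochondrial uptake and calcium binding was set up, and besides the 3 members 4 of its genes are described here, each of them named because the study had listed it from these counts. These were SLC24A2, an exchanger of the members' own family, the receptor-operated cation channels TRPC1 and TRPC6, and CACNA1F, the pore subunit of a voltage-gated calcium channel of the retina. None of the 4 was called in any of the 13 comparisons. The unadjusted p was below 0.05 for CACNA1F in weaned against control calves on d 2 (log2 difference -1.14, SE 0.53, adjusted p = 0.950), for SLC24A2 in weaned against control calves on d 7 (1.79, SE 0.71, adjusted p = 0.164) and in control calves on d 7 against d 0 (-1.60, SE 0.66, adjusted p = 0.0845), and for TRPC6 in the d 1 interaction (1.09, SE 0.37, adjusted p = 0.20). TRPC6 was counted well in every library, between 2.11 and 43.2 CPM. SLC24A2 was under 3 counts in 29 of 48 libraries, CACNA1F in 34 and TRPC1 in 13, so that for these differences lay near the floor. The median log2 difference of the 4 in the interactions was 0.86, 0.85 and 0.87 on d 1, 2 and 7, beside 0.04, 0.05 and 0.03 over all genes tested. The 4 could be named only because the study had listed them as changed in these counts. The gap to all genes therefore includes that selection and cannot be read for calcium genes in general. The other exchangers, the ryanodine receptors RYR1 and RYR2 and the inositol trisphosphate receptors were not identified and are not analysed here.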

How the data were processed

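Leukocyte RNA-seq of 12 calves (6 weaned, 6 control) on 4 days was analysed. The authors deposited raw counts of reads per gene: single 36-base reads were aligned with Bowtie 0.12.7 to Btau4.0 with 0 mismatches, multiple alignments were suppressed, 1 read was kept at each position, and reads were counted with HTSeq 0.4.6p2 against Ensembl release 61. No library was pooled. The groups came from the labels, which also give each calf, so that libraries of a calf pair by animal (median r of deviations from the group means 0.38 over 72 pairs of the same calf, against -0.10 between calves of a treatment).

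The tests were run in R 4.3.3 with edgeR 4.0.16 (TMM, genes of 10 or more counts over a fit's libraries, quasi-likelihood F-test, Benjamini-Hochberg adjustment over all genes, at least 2-fold), first tested on simulated data. The simulation gave every gene the same spread, changed only well-counted genes and held no calf effect. It therefore says little about the test for the members. There were 10 comparisons of 2 groups of 6 and 3 interactions with calf as block. Levels and permutation tests used pandas 2.3.3 and numpy 2.4.6 under Python 3.11.15, and figures matplotlib 3.10.9. Alternatives were RLE size factors, no filter, DESeq2 1.42.0, edgeR's exact test with a common dispersion, all 48 libraries in 1 fit, flowcell (from the study's lane assignments, whose sample suffixes carry no day and were assumed to follow the sampling order), the calf block, a pseudocount of 0.25 in place of 1 and leaving out each calf. Leaving out 5 libraries and calves 1755 and 1758, and the permutation test of every gene with a mean of at least 1 CPM, were added after seeing the data. For the interactions, a calf with 1 of the 5 libraries in the fit was left out whole.

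The members, the calcium and marker lists and the tests were chosen with earlier results of these data known. Genes named beyond the members were the list genes with p under 0.05, up to 4 a comparison, and the 5 named genes most like each member. 1 gene of the calcium list is not reported here. Symbols came from human orthologs in the study's tables, which name 644 identifiers of the count table and only genes that the study had selected. No sequence or GC content was used, and gene coordinates of another build are not given.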

Additional observations from a re-analysis of the deposited data

Results flagged for a closer look

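In groups of 6 libraries, a highest or lowest library stood apart by Dixon's test 10 times over the 24 groups of the 3 members. For independent, normally distributed values about 1 in 20 groups would be flagged. These CPM are skewed and the same calves recur over days, so that rate does not apply here. Calf 1755 was the highest control for SLC24A1 on d 1 (6.81 CPM, next 1.53), for SLC24A5 on d 1 (16.9 CPM, next 5.82) and for RYR3 on d 0 (47.8 CPM, next 5.69) and d 1 (65.9 CPM, next 4.81). Calf 1758 was the highest weaned calf for SLC24A1 on d 2 (10.1 CPM, next 2.27) and for SLC24A5 on d 2 (16.5 CPM, next 5.54) and d 7 (18.0 CPM, next 6.42). Calf 1802 was the highest control for RYR3 on d 2 (8.07 CPM, next 1.82), calf 1809 the highest weaned calf for RYR3 on d 0 (13.5 CPM, next 4.99), and calf 1789 the lowest control for SLC24A5 on d 7 (0.70 CPM, next 2.73).

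The averaged change from d 0 stood apart between treatments for SLC24A5 (1.28 on the log2(CPM + 1) scale, exact permutation p = 0.00433) and for SLC24A1 (0.94, exact permutation p = 0.0433). The same test gave p under 0.05 for 39.7% of all genes tested, and after adjustment over them SLC24A5 had an exact permutation p of 0.0955 and SLC24A1 of 0.118. SLC24A1 was past the threshold neither without the doubted libraries (exact p = 0.222), nor without calves 1755 and 1758 (exact p = 0.127), nor at log2(CPM + 0.25) (exact p = 0.0866).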

How the results depend on the processing

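Of 726 values of the 3 members under alternatives, 682 kept their direction and their side of the threshold. The calf block (and, for the interactions, leaving the block out) turned no direction and gave no member a call, and for SLC24A5 in weaned calves on d 1 against d 0 the value with the block was 1.28. RLE size factors, DESeq2, no filter on low counts and all 48 libraries in 1 fit changed no direction and no call of a member. The cause of the changes below was not tested. All values are log2 differences.

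edgeR's exact test with a common dispersion, which gives every gene the same spread, called SLC24A5 in weaned against control calves on d 7 (1.19), weaned calves on d 1 against d 0 (1.29) and control calves on d 7 against d 0 (-1.02), and RYR3 in weaned against control calves on d 0 (-1.27) and d 2 (2.55), weaned calves on d 1 (1.10) and d 2 (1.81) against d 0 and control calves on d 2 against d 0 (-2.02). With flowcell as covariate, which rests on an assumed order of the samples, the direction turned for SLC24A5 in control calves on d 1 against d 0 (0.18) and for RYR3 in weaned against control calves on d 0 (0.58) and d 1 (1.48) and in control calves on d 7 against d 0 (0.74). Without the libraries that resembled another calf it turned in the d 7 difference between treatments for SLC24A1 (-0.17) and RYR3 (-0.32) and for SLC24A5 in control calves on d 1 against d 0 (0.012). Without calves 1755 and 1758 it turned for SLC24A1 in weaned against control calves on d 7 (-0.026) and for RYR3 in weaned against control calves on d 0 (0.63) and d 1 (1.5) and control calves on d 1 (-0.24) and d 2 (0.15) against d 0. The averaged change of SLC24A1 lost its exact permutation call at log2(CPM + 0.25) (1.17, p = 0.0866), without the doubted libraries (0.47) and without the calf pair (0.75).

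Leaving out 1 calf at a time gave, for weaned against control calves, -0.22 (without calf 1773) to 1.07 for SLC24A1 on d 1, -0.057 (without calf 1758) to 0.88 for SLC24A1 on d 2, 0.47 to 1.37 for SLC24A5 on d 7 (adjusted p = 0.0498 without calf 1809, otherwise above the threshold), and for RYR3 -2.08 to 0.69 (without calf 1755) on d 0, -1.04 to 2.02 (without calf 1755) on d 1 and -0.071 (without calf 1758) to 1.33 on d 7. In control calves it gave -0.63 to 0.21 (without calf 1763; also above 0 without calf 1759) for SLC24A5 on d 1, and for RYR3 -0.24 (without calf 1755) to 0.40 on d 1 and -3.04 to 0.15 (without calf 1755) on d 2. The averaged change was 0.73 to 1.23 for SLC24A1, with the exact permutation p below 0.05 only without calf 1762 or calf 1789, 0.99 to 1.44 for SLC24A5 (exact permutation p at most 0.00866) and 0.78 to 1.4 for RYR3 (exact permutation p = 0.0216 without calf 1803).

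Over all genes, the 516 calls of control calves on d 7 against d 0 became 11 with flowcell, 1 with all 48 libraries in 1 fit, 790 without calf 1802, 1086 without calf 1803 and 0 without calf 1755, 1759 or 1763, without the doubted libraries or without the calf pair. Where the main test called 0, the exact test called 18 to 865 in 8 comparisons of 2 groups, DESeq2 called 26 between treatments on d 7 and 923 in the d 7 interaction, the quasi-likelihood test without the filter called 625 in the d 7 interaction, 1137 were called on d 7 between treatments without calf 1809, and other alternatives called at most 5. With 3 counts as floor, 0.705 to 1.80 CPM, lower levels of the members were not measurable in single libraries.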
